A study of Homo sapiens with 2 samples.

Results

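The genes described here are the core of the transforming growth factor beta (TGF-beta) pathway, 3 ligands, 3 receptors and 4 SMAD proteins, and the values are the peaks of HNRNPC-bound RNA that lie in them. A peak was taken when its summit, the base of highest signal, fell in the GRCh38 RefSeq span of TGFB1, TGFB2, TGFB3, TGFBR1, TGFBR2, TGFBR3, SMAD2, SMAD3, SMAD4 or SMAD7. This gave 54 of the 23148 peaks in the list, in 8 of the 10 genes. RNA immunoprecipitation sequencing (RIP-seq) was done in A549, a widely used human line derived from a lung adenocarcinoma and labelled as non-small cell lung cancer, grown without any stated treatment. The series has 1 library of RNA precipitated with 5 µg of antibody against HNRNPC (the IP) and 1 input library of the same untreated line, made without antibody. Only the IP library's peak list was used, so there was no replicate check, and no test between samples was made.

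In the TGF-beta pathway, a ligand dimer brings type II and type I receptor kinases together. The type I receptor then phosphorylates SMAD2 and SMAD3, which join SMAD4 and enter the nucleus to regulate transcription, while SMAD7 inhibits the receptor. In epithelial tumour cells, lung cancer lines among them, the pathway is known both for growth arrest and for the epithelial-mesenchymal transition. HNRNPC is a nuclear RNA-binding protein that coats nascent transcripts and is known to bind runs of U.

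Each peak has a fold, the enrichment over the background that the peak caller used, and a −log10 q, both the authors' values. A peak needs RNA from its position, be it of the named gene or of one that overlaps it. No expression values were used here, so a number of peaks reflects RNA level and enrichment together. The reference gives gene spans, strand and starts without exons, so exon, intron and UTR were not resolved, and the peaks carry no strand. For scale, fold and p at each summit were also solved for the coverage behind them, as IP fragments over the summit and as a control level. A control level of 1, or another whole number, was read as that many control fragments over the summit. A level between whole numbers does not show such fragments. The lowest level, 0.103, is the genome-wide background. The common scale found in this way puts the IP library at 1.87 times the fragments of the control the caller used. The labelled cell type cannot be checked from peaks: of 5 epithelial marker genes CDH1 had a peak, and of 6 markers of other cells none did. Of all protein-coding genes 18.4% had a peak. Among genes of like span the mean share was 20.3% for the epithelial markers and 27.4% for the others.

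At 5 genes a peak overlapped the promoter window, which runs from 250 bases before to 50 bases after an annotated start. These windows show where the 5′ peaks begin relative to the start of the RNA. They are RefSeq sequences of GRCh38.p14, written 5′ to 3′ on the strand of the gene, with the bases under a peak in capitals. In 4 genes the peak begins after the start shown and continues beyond the window, and in SMAD7 it lies wholly before the start. For TGFBR1, which has 8 listed starts, the same peak also overlaps another window that is not printed.
TGFB2, chr1:218345086-218345385, plus strand: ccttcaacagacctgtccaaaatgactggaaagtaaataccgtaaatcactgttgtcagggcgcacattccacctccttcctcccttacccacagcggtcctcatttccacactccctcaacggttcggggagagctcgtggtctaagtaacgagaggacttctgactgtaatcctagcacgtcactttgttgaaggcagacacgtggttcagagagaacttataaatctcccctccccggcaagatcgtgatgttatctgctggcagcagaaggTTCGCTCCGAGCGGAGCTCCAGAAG
TGFBR1, chr9:99104863-99105162, plus strand: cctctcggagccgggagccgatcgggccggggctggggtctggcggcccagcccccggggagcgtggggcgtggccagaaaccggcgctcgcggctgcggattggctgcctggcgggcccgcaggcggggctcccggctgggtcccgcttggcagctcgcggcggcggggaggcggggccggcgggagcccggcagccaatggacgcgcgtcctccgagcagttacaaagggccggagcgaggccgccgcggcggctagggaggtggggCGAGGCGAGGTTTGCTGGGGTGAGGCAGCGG
TGFBR2, chr3:30606351-30606650, plus strand: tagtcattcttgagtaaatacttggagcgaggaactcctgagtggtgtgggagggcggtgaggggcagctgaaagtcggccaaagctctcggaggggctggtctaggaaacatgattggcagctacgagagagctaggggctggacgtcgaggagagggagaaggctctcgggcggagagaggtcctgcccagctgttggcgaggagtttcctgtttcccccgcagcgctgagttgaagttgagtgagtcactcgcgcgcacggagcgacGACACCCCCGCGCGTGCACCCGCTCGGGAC
SMAD4, chr18:51029963-51030262, plus strand: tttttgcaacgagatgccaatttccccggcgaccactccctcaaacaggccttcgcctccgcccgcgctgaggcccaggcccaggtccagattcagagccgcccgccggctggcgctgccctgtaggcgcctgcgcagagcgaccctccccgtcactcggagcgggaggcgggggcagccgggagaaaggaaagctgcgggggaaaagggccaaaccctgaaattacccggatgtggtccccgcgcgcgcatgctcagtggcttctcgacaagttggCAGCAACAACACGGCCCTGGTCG
SMAD7, chr18:48950916-48951215, minus strand: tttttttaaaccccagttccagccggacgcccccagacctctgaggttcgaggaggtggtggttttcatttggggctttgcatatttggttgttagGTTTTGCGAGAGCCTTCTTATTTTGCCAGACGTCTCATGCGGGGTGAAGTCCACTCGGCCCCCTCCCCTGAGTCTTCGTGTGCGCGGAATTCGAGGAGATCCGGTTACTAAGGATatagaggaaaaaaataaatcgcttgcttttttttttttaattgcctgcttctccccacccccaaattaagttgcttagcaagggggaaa

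The bases in capitals are 64.0% G or C in TGFB2, 71.0% in TGFBR1, 80% in TGFBR2, 65.2% in SMAD4 and 55.7% in SMAD7. Their longest run of T is 2, 3, 1, 1 and 4 bases in the same order. The motif TTTTT on the gene's strand, a run of U where it is transcribed, occurs in 5 of the 26 windows listed for the 10 genes. The share is 20.7% in the 22199 windows of protein-coding genes. On the other strand the motif occurs in 8 of 26 windows and in 20.4%. Of each window 250 bases lie before its start, so a run there need not be in RNA from that start. The longest such run in the SMAD7 window, of 12 T, lies between the peak and the start and not under the peak. The SMAD7 peak is printed whole, whereas the other 4 peaks extend beyond their windows, and the sequence of those parts was not analysed here.

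Among the ligands, TGFB2 was the only gene with peaks. Its first peak, chr1:218345361-218347070, was 1710 bp wide, reached a fold of 12.5 at a −log10 q of 17.7, and had its summit 276 bases downstream of the start. By fold this peak ranked 789 of 23111, in the upper 3.41%, and 39 IP fragments lay over its summit (95% exact Poisson interval 27.7 to 53.3) at a control level of 0.752. The summit also lies in TGFB2-AS1, an antisense lncRNA gene, and without strand its reads cannot be told apart from those of TGFB2. The second peak lay 59.9 kb into the 99.3 kb span, with a fold of 5.33. The other 4 formed a run 3.25 kb long, from 88.8 to 92.04 kb, whose folds of 5.33, 6.66, 3.52 and 3.90 were all well under that of the first peak. At these 5 later summits the control level was 1 to 4, so control fragments covered them, in contrast to the first.

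TGFB1 and TGFB3, the other ligands of the family, had no peak by summit or by an overlap of 1 base. TGFB1 spans 23.6 kb on chromosome 19 and TGFB3 24.9 kb on chromosome 14. Short genes seldom held a peak: 13.4% of the 2004 protein-coding genes in the span class of TGFB1 (16.3 to 24.1 kb) and 19.8% of the 2003 genes in that of TGFB3 did. In the class of TGFB2 (83.5 to 152.2 kb) 40.4% had a peak and 21.2% had 6 or more.

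The receptors all carried peaks, 20 in total, and TGFBR1 had the most of any of the 10 genes. TGFBR1 encodes the type I receptor kinase and held 11 peaks in 50.5 kb, or 21.8 per 100 kb. In its span class of 35.3 to 52.3 kb, 559 of 2004 protein-coding genes (27.9%) had a peak and 70 (3.49%) had as many. From the 5′ end to the 3′ end its folds were 9.64, 5.85, 6.51, 11.6, 10.1, 9.16, 6.66, 6.94, 5.33, 5.33 and 5.33. The first summit was 52 bases downstream of an annotated start, and none lay in the next 23.8 kb. The last 8 summits then formed a run of 13.1 kb that ended 3.07 kb before the 3′ end of the span, with lower folds towards that end.

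The highest TGFBR1 peak, chr9:99137898-99138090, lay inside this run with 22 IP fragments (95% interval 13.8 to 33.3) and a control level at the genome-wide background. The last 3 peaks had 20 IP fragments each, nearly as many, at a control level of 1.199. Their lower folds thus stood beside a higher control level and not beside much lower IP coverage.

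TGFBR2, the type II receptor kinase that binds the ligand first, held the highest fold of the 54 peaks. This peak, chr3:30606621-30607000, reached a fold of 12.9 at a −log10 q of 17.9, with 37 IP fragments over the summit (95% interval 26.1 to 51.0) at a control level of 0.611. Its summit was 232 bases downstream of an annotated start, and by fold it was in the upper 2.86% of the list. The summit also lies in LOC105377015, a RefSeq protein-coding gene that overlaps the 5′ end of TGFBR2, so the peak may belong to either gene. The other 6 peaks were spread over the 87.8 kb span with folds of 5.27, 4.30, 5.51, 4.97, 2.85 and 4.09 in 5′ to 3′ order. The weakest of them, at chr3:30671717-30672441, had 46 IP fragments, more than the strongest peak, but a control level of 8.

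TGFBR3, or betaglycan, a co-receptor that presents the ligand, had the lowest density of peaks among the 8 genes with one. It had 2 peaks in 225.7 kb, 0.886 per 100 kb, with folds of 4.30 and 5.27 from 7 and 9 IP fragments (95% intervals 2.81 to 14.4 and 4.12 to 17.1) at the background control level. Both lay more than 80% of the way along the span, and none was near its listed start. In its class, the longest genes, 33.6% had a peak and 27.5% had 2 or more.

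**Figure D1:**
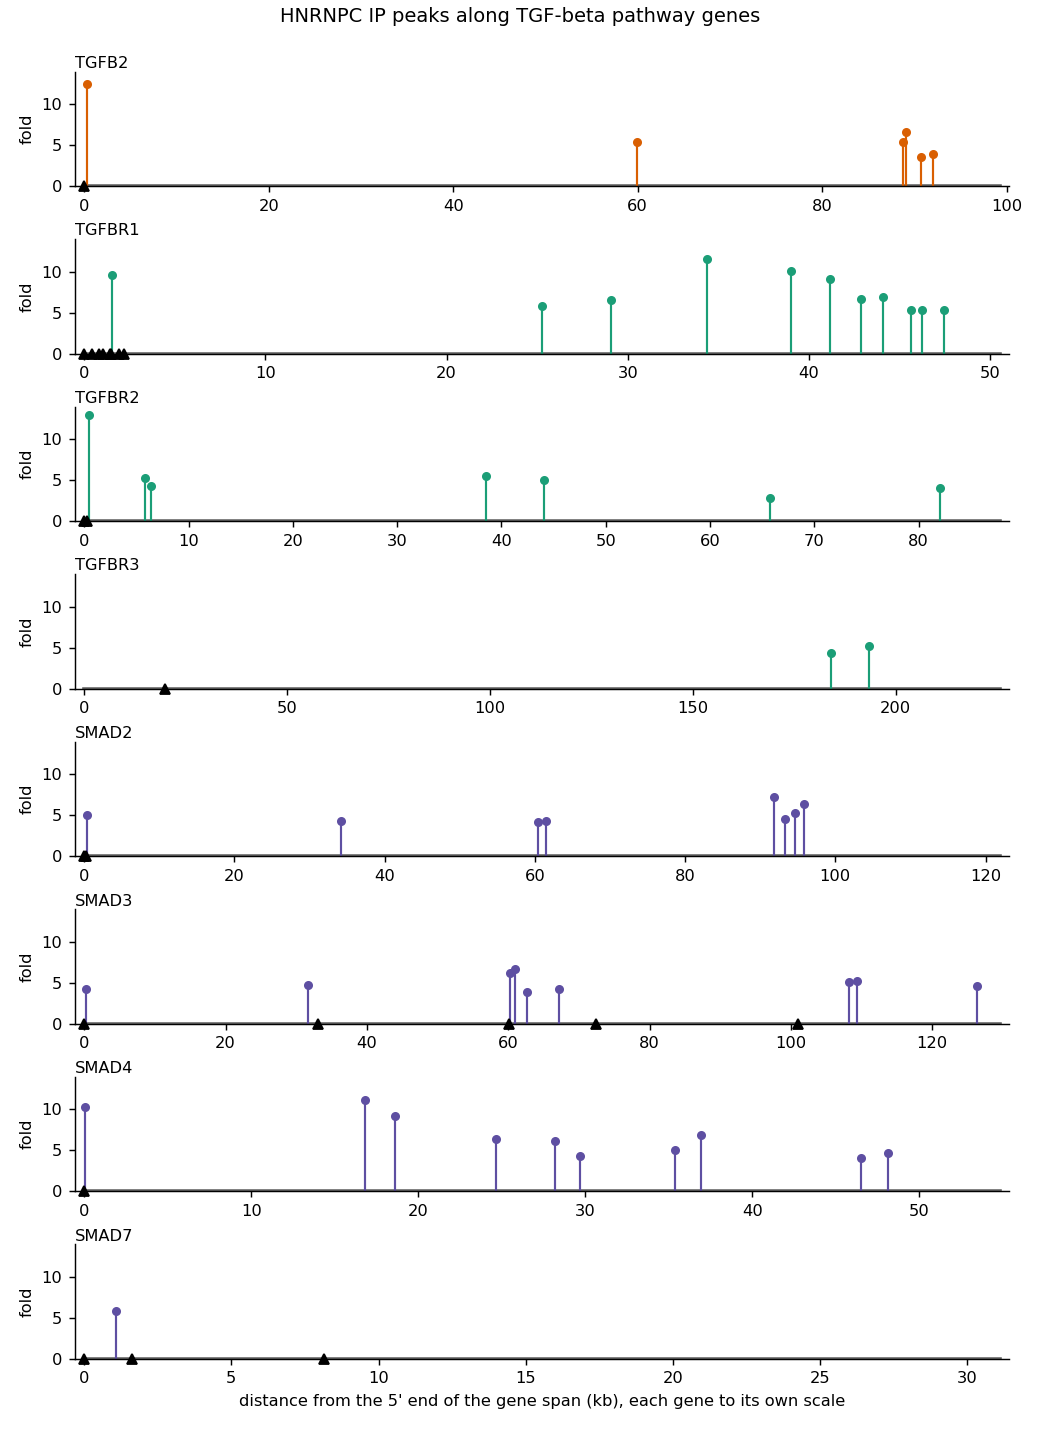
Fold of each of the 54 peaks (vertical axis) against the distance of its summit from the 5′ end of the gene span in kb (horizontal axis, each gene to its own scale), for the 8 genes with a peak. Triangles mark annotated starts; the tallest lines of TGFB2 (12.5) and TGFBR2 (12.9) stand at the 5′ end, and TGFBR1 has a run of 8 summits in its 3′ part.

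All 4 SMAD genes carried peaks, 28 in total, at 8.30 per 100 kb of summed span. The receptors had 5.49 per 100 kb and the ligands 4.06. Each of these values pools genes of unlike density. TGFBR3 made up 225.7 of the 364.0 kb of the receptors with 2 of their 20 peaks. TGFBR1 and TGFBR2 had 21.8 and 7.97 per 100 kb. Among the SMADs the density ran from 3.21 in SMAD7 to 18.2 in SMAD4, and all ligand peaks were in TGFB2. SMAD4, the partner shared by all receptor-activated SMADs and a tumour suppressor gene, held 10 in 54.8 kb. Of the 2003 genes of its span class 32.5% had a peak and 6.94% had 10 or more. Its first 3 peaks had the highest folds, 10.3, 11.2 and 9.16, from 20, 22 and 17 IP fragments. The first of these, chr18:51030240-51030582, had its summit 56 bases downstream of the start, the shortest such distance for the 5′ end of a span among the 10 genes. The later 7 peaks had lower folds of 6.39, 6.12, 4.30, 5.05, 6.93, 4.08 and 4.62. Their IP fragments were 22, 21, 7, 17, 24, 21 and 24, mostly as many as at the first 3. The control level was at most 0.141 at the first 3. At the later peaks it was 1 or 2, except 0.103 at the peak with 7 fragments. Their lower folds thus mostly stood beside a higher control level and not beside lower IP coverage.

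SMAD2 and SMAD3, the receptor-activated SMADs of the pathway, had 8 and 9 peaks of modest fold. For SMAD2 the folds ran 5.05, 4.36, 4.13, 4.27, 7.20, 4.55, 5.25 and 6.37 from 5′ to 3′. Its highest peak, chr18:47838425-47840023, was 1599 bp wide and opened a run of 4 summits over 4.06 kb that ended 26.05 kb before the 3′ end. The first SMAD2 summit lay 209 bases downstream of an annotated start. All 8 SMAD2 summits had a control level of at least 1 and at most 5.

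SMAD3 differed from SMAD2 in the coverage behind its peaks. Its folds were 4.27, 4.79, 6.25, 6.73, 3.82, 4.30, 5.15, 5.21 and 4.62 in 5′ to 3′ order, and 7 of its 9 summits had a control level below 1, with 6 to 12 IP fragments. The remaining pair stood at the ends of the gene, where IP coverage and control level were both high. The first, 291 bases downstream of the start, had 46 IP fragments at a control level of 5. The last, chr15:67191687-67193560, was the widest of the 54 at 1874 bp and had 49 IP fragments at a control level of 4.90. The summits of its highest folds, 6.25 and 6.73, lay near the middle of the gene, 148 and 855 bases downstream of an internal annotated start.

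SMAD7, the inhibitory SMAD, had 1 peak in its 31.1 kb span, with a fold of 5.80 from 11 IP fragments (95% interval 5.49 to 19.7). It lay 1080 bases downstream of the 5′ end and 552 bases upstream of an internal start. A further 2 peaks had their summits just outside the span and so were not counted. One, chr18:48951005-48951119, is the peak shown in capitals in the SMAD7 window, with its summit 61 bases upstream of the start and a fold of 4.84 from 11 IP fragments. The other, chr18:48951556-48952006, had its summit 819 bases upstream, a fold of 8.85 and 17 IP fragments, and lay in no annotated gene. No other gene of the 10 had a peak with its summit within 5 kb outside its span.

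Of the 10 genes, 8 had a peak, against 18.4% of 20037 protein-coding genes. Most of the 10 are long, and the mean share over the span classes they belong to was 30.9%. Among the genes with a peak, the median number of peaks was 7.5 for the 8 TGF-beta genes and 4 for all protein-coding genes, at 6.75 and 6.84 peaks per 100 kb. The density was thus close to that of other genes with a peak, and the median spans were 93.5 and 64.9 kb. Within the 8, the density ran from 0.886 per 100 kb in TGFBR3 to 21.8 in TGFBR1. Among the genes most like TGFBR1 by an equal number of peaks, 11, and the closest span were REL and AREL1, from 97 such genes, with best folds of 7.70 and 9.16 in this 1 library.

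**Figure D2:**
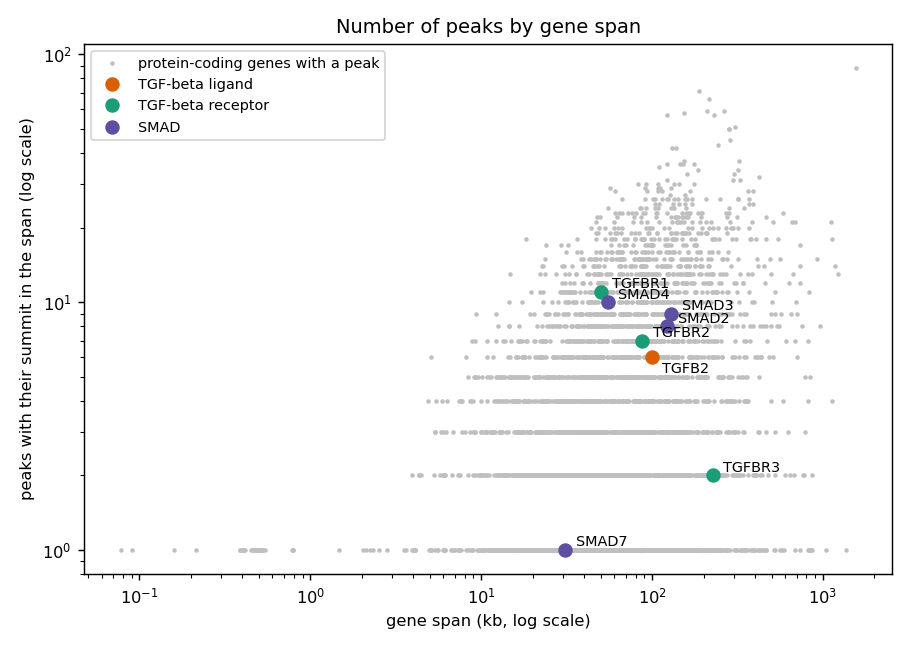
Number of peaks with their summit in the gene span (log scale) against span in kb (log scale) for the 3685 protein-coding genes with a peak, in grey, and for the 8 TGF-beta genes. TGFBR1 and SMAD4 have 11 and 10 peaks at spans near 50 kb, and TGFBR3 has 2 at 225.7 kb.

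The 54 peaks had a median fold close to that of the whole list, and more of their summits had a control level of 1 or more. Their median fold was 5.33 (range 2.85 to 12.9), against 5.76 for all 23111 peaks on chromosomes 1 to 22, X and Y. The median of inferred IP fragments was 20.5 for the 54 and 15 for all peaks. The control level was below 1 at 24 of the 54 summits (44.4%, 95% exact binomial interval 30.9 to 58.6%), against 69.1% of all 19183 summits in protein-coding genes with a listed start. At summits with a control level below 1 the median IP coverage was 12 fragments for the TGF-beta summits and 12 for all peaks, and at a level of 1 or more it was 24 and 23. At a like control level the IP coverage was thus close to that of the list, with no test made. Peaks were also wider, with a median of 152 bp against 125 bp. These intervals cover counting error only, and peaks close to each other may share fragments.

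**Figure D3:**
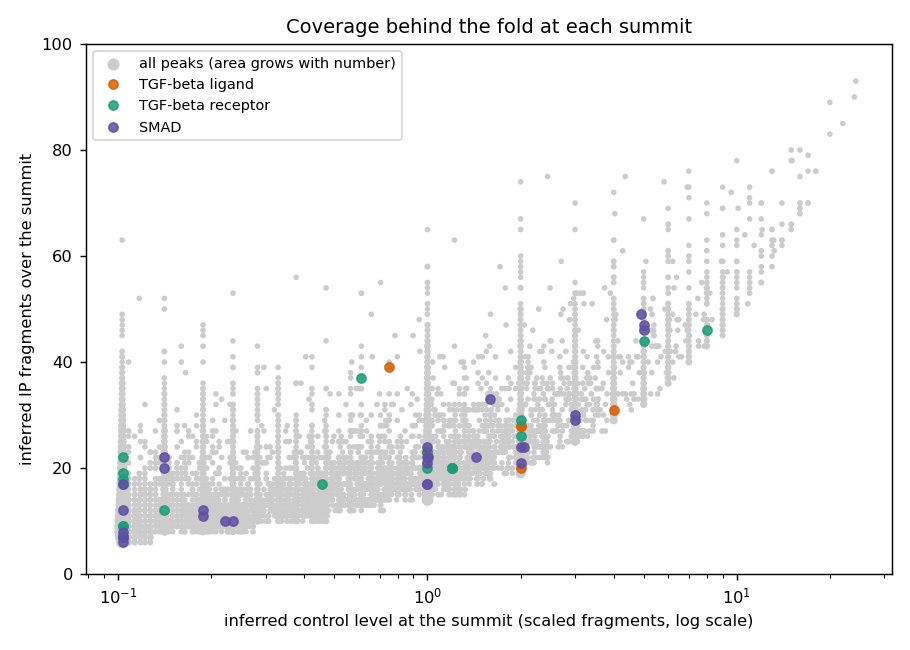
Inferred IP fragments over each summit (vertical axis) against the inferred control level there (log scale, scaled fragments), for the 54 TGF-beta summits by role and for all peaks in grey. The highest folds, in TGFBR2 and TGFB2, have 37 and 39 IP fragments at control levels below 1, while the lowest, also in TGFBR2, has 46 at a level of 8.

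A summit near an annotated start was found in 7 of the 8 genes, TGFBR3 being the exception. The distance was at most 1000 bases, chosen after the peaks were seen. Among protein-coding genes with a peak and a listed start 59.3% had such a summit. For genes with 6 to 11 peaks the share was 75.8%, and all 6 TGF-beta genes with that many had one, so the count is read against a high background. Over single summits the shares were 9 of 54 (16.7%, 95% interval 7.92 to 29.3%) and 11.1%. The 9 had a median fold of 6.73 and the other 45 one of 5.27. Over all summits in protein-coding genes the medians were 6.24 near a start and 5.76 farther away. Median IP fragments were 18 for the 9 and 21 for the 45, and 15 in both places over all summits. The control level was below 1 at 77.8% of the 9 and 37.8% of the 45, against 70.2% and 69.0% over all summits. The higher fold of the 9 thus stood beside a lower control level and not beside higher IP coverage. Of the 7 genes with 2 or more peaks, TGFB2, TGFBR2 and SMAD3 had their highest fold within that distance, against 23.1% of 2343 genes with 2 or more peaks.

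With each span divided into 5 equal parts, the 54 summits were most frequent in the part at the 3′ end, with 18 (33.3%, 95% interval 21.1 to 47.5%), against 25.7% of all summits in protein-coding genes. They were least frequent in the second part from the 5′ end, with 4 (7.41%, interval 2.06 to 17.9%), against 13.9%. In both cases the interval of the 54 contains the share of all summits. The intervals treat summits as independent, although many lie in runs within 8 genes. A difference from all summits was not tested. TGFBR1 gave 6 of the 18 and TGFB2 gave 4.

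**Figure D4:**
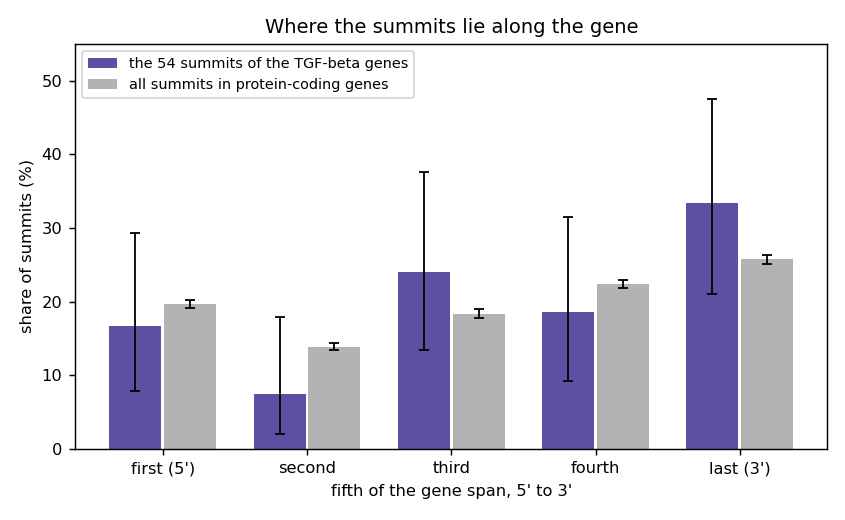
Share of summits (%) in each of 5 equal parts of the gene span from 5′ to 3′, for the 54 TGF-beta summits and for all 19183 summits in protein-coding genes with a listed start. Error bars are 95% exact binomial intervals, which overlap between both sets in all 5 parts.

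Beyond the 10 genes, peaks were uneven over the roles of the TGF-beta and bone morphogenetic protein (BMP) pathways. Over 8 further lists with 89 genes in all, 32 had a peak (35.96%), against 18.4% of protein-coding genes and a mean of 23.3% over the span classes of these genes. The median best fold of the 32 was 7.94, against 7.04 for all protein-coding genes with a peak. None of 10 other ligands of the family, BMP2, BMP4 and INHBA among them, had a peak, as for TGFB1 and TGFB3. Most of these ligand genes are short, with a median span of 13.4 kb and a mean share of 12.3% over their classes. BMP6 (155.6 kb) and BMP7 (97.9 kb) are long and lacked a peak too, in classes where 33.6% and 40.4% had one.

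In the BMP branch, receptor and SMAD genes held up to 16 peaks. Of 10 other receptors 5 had a peak (mean of the classes 31.9%), led by the type I receptor BMPR1A at a fold of 12.6 over 11 peaks and the type II receptor BMPR2 at 11.1 over 16. The activin receptor gene ACVR2B had 6.73 and BMPR1B 5.76, and ACVR1, ACVR1B and ENG had none. Of 4 other SMADs 3 had a peak (mean of the classes 31.3%), and SMAD5 reached 11.1 over 12 peaks in a span of 49.9 kb. SMAD1, which acts with it below BMP receptors, had 8.19 over 2 peaks, the inhibitory SMAD6 had 3.89 over 1 and SMAD9 had none.

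Of 20 regulators of receptors and SMADs, 10 had a peak (mean of the classes 28.6%). USP9X, a deubiquitinase that acts on SMAD4, had the highest fold of any gene in these lists, 19.6, over 36 peaks. SKIL, which encodes the SMAD corepressor SnoN, had 16.4 over 12 peaks, and the ubiquitin ligase genes SMURF2 and TRIM33 had 9.16 each. SMURF1, the homolog of SMURF2, and SKI, that of SKIL, had no peak. Of 11 genes for the storage and activation of latent TGF-beta 4 had one (mean of the classes 25.5%). Among these were the integrin subunit gene ITGAV at 14.01 over 26 peaks and the activator gene THBS1 at 12.03 over 18 in a span of 18.4 kb, while ITGB8 had 4.29 and LTBP1 3.82, with 1 peak each.

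Of 8 genes of the branch without SMADs 5 had a peak (mean of the classes 26.8%), led by ROCK1 at 9.16 over 19 peaks and by MAP3K7, the kinase TAK1, at 8.67 over 8. TAB3 had 7.45 and TAB2, which like TAB3 binds TAK1, had 4.79. Of 9 nuclear partners 4 had one (mean of the classes 30.9%), led by SP1 at 14.3 and by the acetyltransferase genes CREBBP at 9.79 and EP300 at 7.22, with ZEB1 at 5.22. Of 17 well-known target genes only FN1, for fibronectin, had peaks, 7 with a best fold of 9.74. CCN2, TGFBI and the ID genes had none. Most target genes are short, with a median span of 6.41 kb and a mean share of 9.53% over their classes. Few peaks would thus be counted in genes of like span too.

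**Figure D5:**
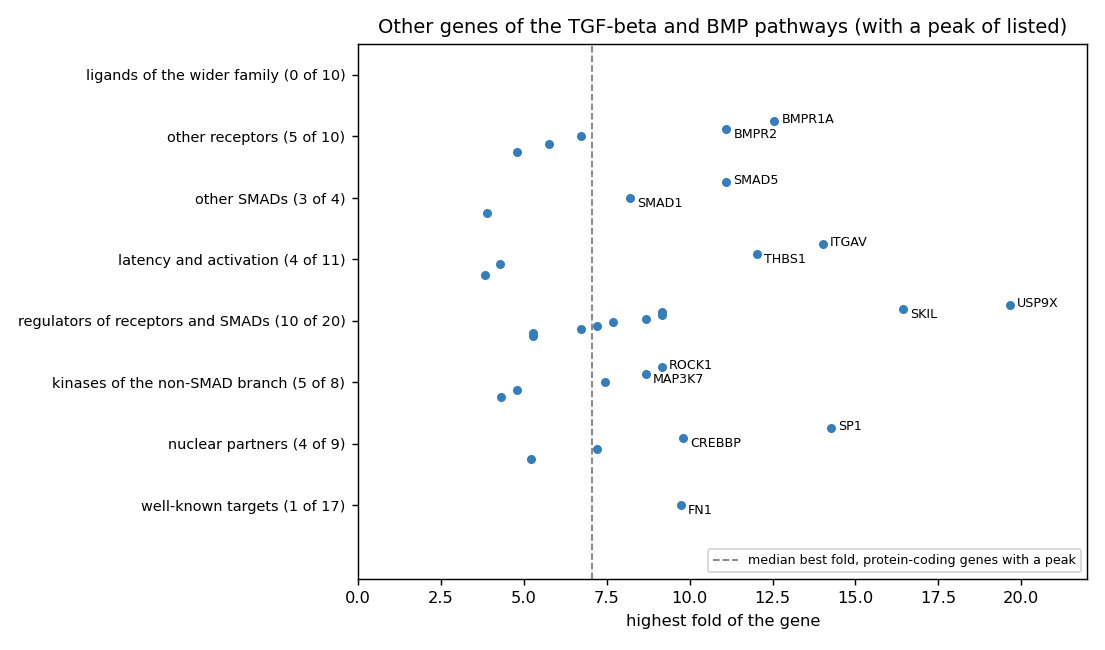
Highest fold of each gene with a peak in 8 further lists of pathway genes, with the number of genes with a peak of those listed. The dashed line is the median best fold of all protein-coding genes with a peak, 7.04; USP9X (19.6) and SKIL (16.4) lie farthest to the right.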

How the data were processed

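RIP-seq peaks of 1 A549 IP library were analysed; values of the input sample were not. Per the submitters' processing notes the tools were HISAT2, MACS2 and bedtools and the build was hg38; roles, versions and the caller's control are not given in the sources used here. The deposited list gives per peak a score (10 times the −log10 q, as a whole number), a fold ratio, and the −log10 of p and q. It holds no read totals, so depth is unknown.

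Of 23148 peaks, 23111 lay on the assembled chromosomes and were kept. RefSeq spans of 20037 protein-coding genes and starts came from GRCh38.p14 tables. A summit counted for every protein-coding gene that held it, and genes without a listed start were left out of position counts. The 10 span classes hold near-equal numbers of genes. MACS2 is known to compute fold as (scaled IP + 1)/(control + 1) and p as a Poisson upper tail. Under these formulas every deposited pair of fold and p gave whole IP fragments within 0.0003 at a common IP scale of 0.535, and each of the 54 had a single solution. This is an inference, not a stated setting. On pairs simulated with these formulas and this scale, 246 of 246 were recovered. This checks the solving step only and cannot show which settings the caller used. The simulated control levels and IP fragments stopped short of the highest in the list. The members and lists were chosen with earlier results of these data known. Named genes were all members and up to 4 of each list by fold, with relatives that lacked a peak. Some items that this rule would name are not reported here. The software was Python 3.11.15 (numpy 2.4.6, scipy 1.17.1, pandas 2.3.3, matplotlib 3.10.9).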

Additional observations from a re-analysis of the deposited data

How the results depend on the processing

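With q of 0.001 or less 45 of the 54 peaks remained, with a fold of 4 or more 50, and with summits in no other gene 52; 8 genes kept a peak in each case, and the median fold lay between 5.30 and 5.51. An overlap of 1 base, or a peak lying mostly inside the span, gave the same 54 as a count. Of 78 alternative values 1 moved by more than the bound set for it, the count of TGFBR3, which was 1 with q of 0.001 or less. The bounds were wide, so this is a weak check. With q of 0.001 or less the count of TGFB2 fell from 6 to 4 within its bound. The share of summits near a start fell from 16.7% to 9.26% with only the 5′ start, also within its bound. The wider lists had 28 to 32 genes with a peak. Distances to starts were chosen after seeing the data: 6 genes had a summit within 500 bases and 7 within 2 kb, and with only the start at the 5′ end of the span 5 did. No paired analysis was possible because each group had 1 library. Runs of U around summits were planned and not analysed here, since sequence beyond the promoter windows was not used here. Fold depends on the control level as well as on IP coverage: without summits at a control level of 1 or more, the median IP coverage of the TGF-beta summits was 12 in place of 20.5.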
